A study of Mus musculus with 46 samples.

Results

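The replication-type histone genes were followed in mouse microglia, the resident macrophages of the brain, with and without Dicer, after lipopolysaccharide (LPS) and across development. The members are all rows whose symbol starts with Hist1h, Hist2h, Hist3h or Hist4h: 69 symbols of the 24824 gene symbols in the 4 deposited tables, of which 55 start with Hist1h, 10 with Hist2h, 3 with Hist3h and 1 with Hist4h. By class they are 6 linker histones H1, 19 H2a, 19 H2b, 12 H3 and 13 H4 genes. The adult table lists 53 of them, with 42 above 0 in any library. The other tables list all 69, with 68 above 0 in total brain, 66 in hippocampus and 68 in development.

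Microglia were sorted as CD45int CD11b+ F4/80+ Ly6C- Ly6G- cells, and E14 cells as CD45+ CD11b+ F4/80hi Ly6C- Ly6G-. The adult, total brain and hippocampus sets compare Dicer-deficient Cx3cr1CreER:Dicerfl/- mice with Cx3cr1CreER:Dicer+/- controls at 10 to 12 weeks. These controls carry a heterozygous Dicer deletion, and in both genotypes the inducible recombinase CreER is driven by Cx3cr1, which other macrophages also express. The adult set holds 3 Dicer-deficient and 4 control libraries. Total brain holds 4 Dicer-deficient and 4 control libraries taken 6 h after LPS at 1 mg/kg, and 3 of each genotype at steady state. Hippocampus holds 2 Dicer-deficient and 2 control libraries after LPS, and 3 Dicer-deficient and 2 control libraries at steady state. The development set holds 4 E14, 5 newborn (P0) and 5 adult libraries of Dicerfl/fl controls without Cre, the adults at 6 to 8 weeks. It also holds 2 P0 libraries of Dicer-deficient Cx3cr1Cre:Dicerfl/fl mice, which the study set against 3 of the P0 controls. Dicer makes mature miRNAs from their precursors. The study asked what its loss does to microglia at these stages.

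Replication-type histones package new DNA, and their genes lie in clusters and are mainly transcribed in S phase. Their mRNAs have no intron in most cases and normally end in a conserved stem-loop in place of a poly(A) tail. Read-through transcripts that do carry a poly(A) tail are known for several of them, mainly in cells that do not divide. The libraries were made with oligo(dT) beads, so the values count the RNA that this capture retained, and the share of all histone mRNA it represents cannot be told from them. In bulk samples, fewer cells that express a gene and less RNA per cell cannot be told apart.

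All values below are the authors' normalized read counts, and levels are compared only within a table because the tables were normalized separately. Library depth ranged from 898451 to 4573063 reads. Microglial marker sums were between 143905 and 205376 in the adult set, and no microglial marker was at 0 in any group. In adult libraries the neutrophil genes S100a8, Camp, Retnlg, Elane and Mpo were at 0 in both genotypes. Several libraries stood apart. P0 Dicer-deficient replicate 1 had 992317 reads and a Cx3cr1 value of 647, against 3744 to 5801 in P0 controls. Hippocampus control replicate 1 had a Cx3cr1 value of 688, against 7139 in its partner. Total brain Dicer-deficient replicate 11b had 2487, against 5330 and 5575 in the other two. Total brain control LPS library 33 had 6058, against 1801 to 2875 in the other control LPS libraries, and adult stage libraries 2, 4 and 5 had 490, 1188 and 940, against 7454 and 8687 in the remaining ones. Dicer1 itself was read over the whole gene, so its level does not check the deletion of an exon: it was 117 to 151 in adult Dicer-deficient libraries and 97.6 to 153 in controls. The labels name no sequencing batch.

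Most histone reads came from few genes. Hist1h2bc, which encodes a core histone H2B, held 28.8% of all member reads over the 46 libraries, and the 10 most read members held 76.1%. These are shares of reads, which also rise with transcript length. They count every row, including rows that nearly repeat each other. In the GENCODE annotation, 46 of the 69 members have the stem-loop in a transcript, and 18 of these end over 200 bases after it. The Hist1h2bc transcript, of 1156 bases, and the Hist2h2be transcript, of 2620 bases, hold none. The stem-loop sites of 5 members whose values are described below are shown with the 16 stem-loop bases in capitals and 5 flanking bases on either side, because this element sets how such mRNAs normally end.
Hist1h1c: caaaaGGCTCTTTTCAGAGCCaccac
Hist1h2ac: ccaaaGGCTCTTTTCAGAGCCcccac
Hist1h2ao: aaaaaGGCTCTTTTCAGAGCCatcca
Hist2h2aa2: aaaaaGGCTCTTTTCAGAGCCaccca
Hist1h2be: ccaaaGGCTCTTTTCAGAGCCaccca
The 16 bases are the same in the 5 sites. The annotated transcripts of Hist1h2ac, Hist1h2be and Hist1h1c go on for 2010, 1861 and 840 bases after the site, against 31 for Hist1h2ao and 35 for Hist2h2aa2.

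Copies share sequence, so single rows cannot all be read as single genes. Counting 50-base words of the annotated transcripts, the median member had 50.5% of its words in no other gene. Hist2h2aa2 and Hist2h3c1 had 0 words of their own, and Hist1h2ap had 6.93%, against 85.9% for Hist1h2ac, 91.5% for Hist1h1c and 69.9% for Hist1h2bc. Hist1h2bq and Hist1h2br had the same read number in every library. Hist2h2aa1 and Hist2h2aa2 differed by at most 20 reads in a library. Hist1h2ap and Hist1h2ao differed by at most 12 reads in a library of total brain, hippocampus or development. In the adult table, by contrast, Hist1h2ap had 1019 reads over the 7 libraries and Hist1h2ao had 1. Each of these pairs is 1 measurement given in 2 rows where the rows are the same. Results are therefore also given as sums by class. These sums add every row, so both rows of such a pair are counted in them. Hist1h2al is annotated as a pseudogene of H2a, with 32.4% of words of its own, and its reads are uncertain for the same reason. The gene Gm20634 holds 65.5% of the Hist1h2al words and 100% of the Hist2h2aa2 words. Whether the rows of Hist1h2al and Hist2h2aa2 share reads was not tested.

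In the adult set, replication-type histone transcripts were higher without Dicer in every class. Summed over all members, the 3 Dicer-deficient libraries had 11844, 11769 and 12478, against 3772, 4187, 3614 and 2809 in the 4 controls. The groups did not overlap, and the mean difference of the log2 sums was 1.76, a fold of 3.38. Scaled to library depth, the members held 2369 ± 151 RPM in Dicer-deficient libraries (SD, n = 3) and 734 ± 88.1 RPM in controls (SD, n = 4). The H2b sum was 4.94-fold higher, the H3 sum 4.01-fold, the H1 sum 3.04-fold, the H4 sum 3.00-fold and the H2a sum 2.92-fold. None of the 5 class sums overlapped between genotypes.

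**Figure D1:**
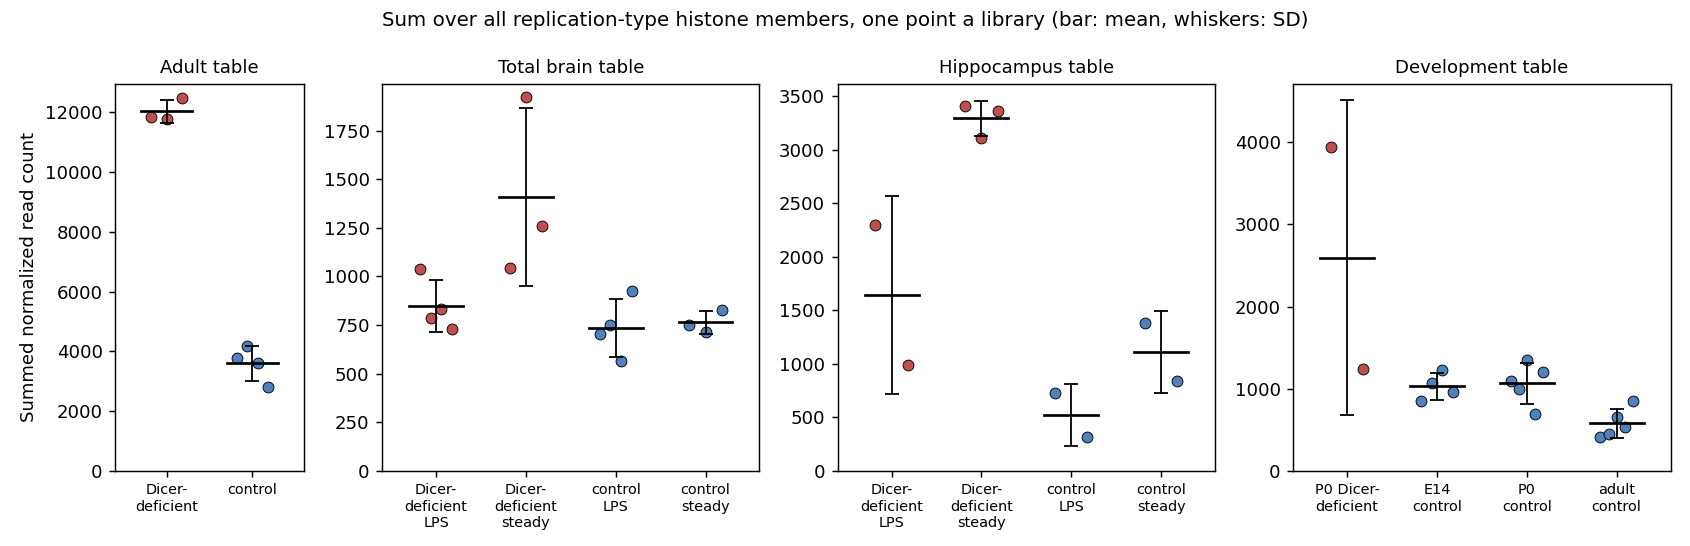
Summed normalized read count over all histone members in each library of the 4 tables (y axis, linear from 0, a scale of its own in each table), with Dicer-deficient libraries in red, controls in blue, bars at the mean and whiskers of 1 SD. The 3 Dicer-deficient adult libraries sit between 11769 and 12478, all above the 4 controls, and P0 Dicer-deficient replicate 1, at 3949, lies far above its partner at 1240.

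Of the 53 members listed in the adult table, 38 passed the filter on low values. Of these, 18 were called, all of them higher in Dicer-deficient microglia (limma, adjusted p under 0.05), where 5.15% of all 11045 genes tested were called in either direction. The median log2 fold change was 1.67 over the 38 members and 0.05 over all genes tested, and 37 of the 38 were above 0. By class, 2 of 3 H1, 8 of 10 H2a, 4 of 12 H2b, 2 of 5 H3 and 2 of 8 H4 genes tested were called. The exception in direction was Hist1h3f (log2 fold change -0.33 ± 1.43), a gene outside the rule for named members, named after its value was seen. edgeR called 18 members and DESeq2 16, and leaving out 1 library gave 12 to 16.

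Among the linker histones, which bind the DNA between nucleosomes, Hist1h1c had 1866, 1622 and 1562 in Dicer-deficient libraries and 584, 570, 467 and 437 in controls. All Dicer-deficient libraries lay above all controls (log2 fold change 1.71 ± 0.16 SE, limma adjusted p = 8.44e-06). Hist1h1e had 1127, 587 and 565 against 213, 355, 317 and 200 (1.45 ± 0.26, adjusted p = 0.00286). Hist1h1d, with 218, 69.5 and 116 against 49.5, 108, 53.7 and 30.8, did not pass the test (adjusted p = 0.195), and its groups overlapped.

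Hist1h2ac, an H2A gene, had 855, 965 and 844 in Dicer-deficient libraries and 223, 207, 242 and 164 in controls (log2 fold change 2.09 ± 0.19, limma adjusted p = 7.00e-06). Hist1h2ap had 827, 849 and 1159 against 262, 331, 242 and 252 (1.79 ± 0.19, adjusted p = 2.90e-05). Hist2h2aa2, whose row nearly repeats Hist2h2aa1, had 738, 1212 and 1052 against 282, 403, 295 and 262 (1.68 ± 0.21, adjusted p = 0.000103). In each of these H2a genes the genotypes were fully separated. Hist1h2ah, Hist1h2an, Hist1h2ak and Hist2h2ac were called with log2 fold changes between 1.45 and 1.93. Hist1h2ak and Hist2h2ac each lost the call in 3 of the 7 fits that left out 1 library and with the replicate number as a block, and Hist1h2ah and Hist1h2an kept it in every alternative run. Hist3h2a was not called, with 187, 587 and 408 against 411, 478, 274 and 236 and overlapping groups (log2 fold change 0.08 ± 0.32, adjusted p = 0.931).

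Hist1h2bc had 2153, 1660 and 2865 in Dicer-deficient libraries and 594, 506, 446 and 288 in controls (log2 fold change 2.29 ± 0.23, limma adjusted p = 1.43e-05). Hist1h2be, another H2B gene, had 604, 691 and 459 against 158, 128, 80.6 and 77.0 (2.43 ± 0.28, adjusted p = 5.16e-05). Both genes kept the genotypes apart in every library. The identical rows Hist1h2bq and Hist1h2br had 166, 112 and 134 against 0, 0, 26.9 and 30.8 (4.65 ± 1.08, adjusted p = 0.0163). Their call was lost with a pseudocount of 0.1 and in DESeq2, and their fitted fold change rests on the 2 controls at 0.

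Among the core histones H3 and H4, Hist2h3c1 had 301, 212 and 125 in Dicer-deficient libraries and 24.7, 59.8, 26.9 and 30.8 in controls (2.55 ± 0.43, limma adjusted p = 0.00182). Hist1h4i had 143, 174 and 181 against 59.4, 27.9, 26.9 and 20.5 (2.37 ± 0.43, adjusted p = 0.00305). Both were separated in all 7 libraries. Hist2h3c2 and Hist1h4k, at no more than 29 reads in any library, were called with limma adjusted p of 0.0445 and 0.0464. Hist2h3c2 lost its call in 6 of the 7 fits that left out 1 library, and Hist1h4k in all 7. Both also lost it with a pseudocount of 0.1 and with no filter, and Hist1h4k with the replicate number as a block.

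**Figure D2:**
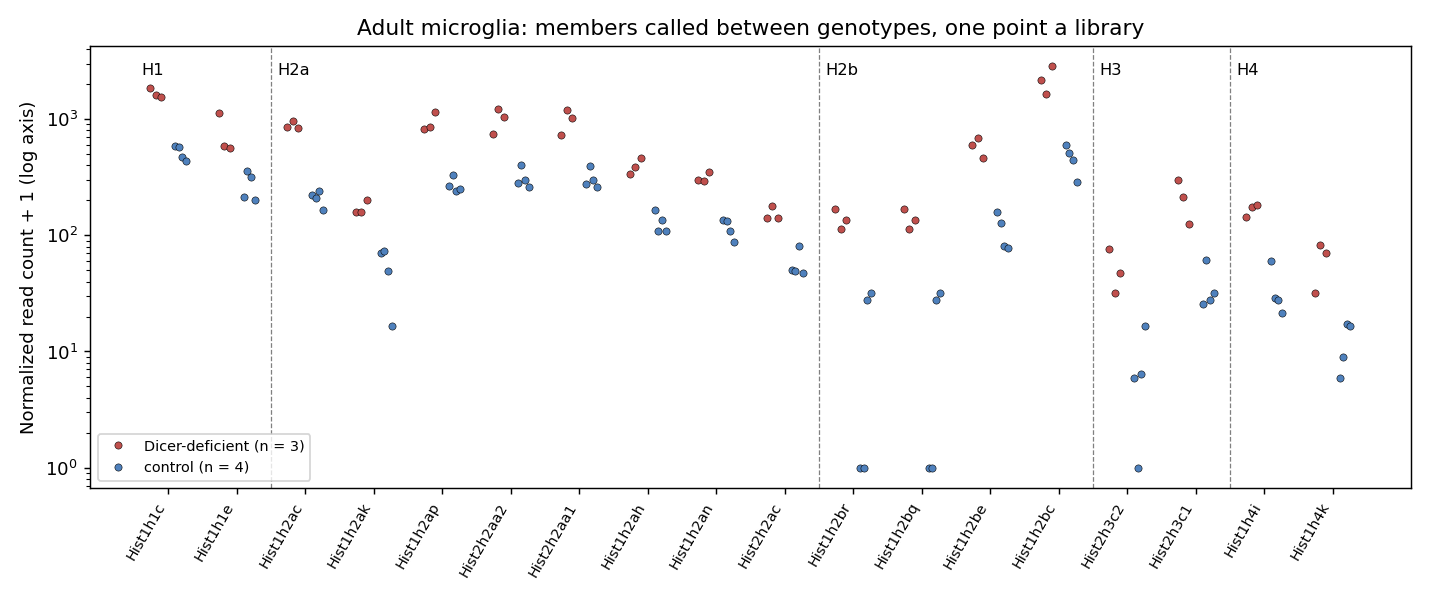
Normalized read count plus 1 (y axis, log scale) of the 18 members called between adult genotypes, grouped by class, with Dicer-deficient libraries in red at the left of each gene (n = 3) and controls in blue at the right (n = 4). Every red point lies above every blue point of the same gene.

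With 1 exception, genes that accompany histone synthesis were not called in the adult set. Among the 23 tested DNA synthesis genes of S phase, 0 were higher and 1 was lower: Mcm3, a subunit of the replicative helicase, with a log2 fold change of -0.94 ± 0.25 (limma adjusted p = 0.0402). Of 15 mitosis genes, 10 replication-independent histone variants, 14 genes of histone transcription and 3' end processing and 17 histone chaperones, limma called 0 in either direction; at an unadjusted p under 0.05 these lists held 0, 0, 3 and 1 genes. The median log2 fold changes were 0.34 for DNA synthesis, 1.24 for mitosis, 0.20 for the variants, 0.13 for 3' end processing and 0.13 for the chaperones. Markers of monocytes and neutrophils summed to 30.9 to 501 in Dicer-deficient libraries and 20.5 to 272 in controls, and 5 of the 10 were at 0 in both. Endothelial markers summed to 77.2 to 139 against 154 to 219, so that no Dicer-deficient library had more of them than a control. Of 3 tested, Pecam1 was called lower (-2.12 ± 0.34, limma adjusted p = 0.00128). The median log2 fold change of the 3 was 0.71, so the others were above 0, and they were not called. Astrocyte markers summed to 606 to 1124 against 1381 to 1563, again without overlap. Of 2 tested, Slc1a3 was called lower (-0.83 ± 0.18, limma adjusted p = 0.0122). The median log2 fold change of the 2 was 0.64, so the other was above 0, and it was not called. The part of these markers in the histone values was not tested.

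Promoters of members that moved together in the adult set are shown, 250 bases before to 50 after the RefSeq start, on GRCm38.p6. Matches on either strand to the octamer ATTTGCAT, to CCAAT and to TATAAA are in capitals. Hist1h2ac lies at chr13:23683910-23684209 on the minus strand, Hist1h2be at chr13:23585921-23586220 on the minus strand and Hist1h1c at chr13:23738557-23738856 on the plus strand.
Hist1h2ac: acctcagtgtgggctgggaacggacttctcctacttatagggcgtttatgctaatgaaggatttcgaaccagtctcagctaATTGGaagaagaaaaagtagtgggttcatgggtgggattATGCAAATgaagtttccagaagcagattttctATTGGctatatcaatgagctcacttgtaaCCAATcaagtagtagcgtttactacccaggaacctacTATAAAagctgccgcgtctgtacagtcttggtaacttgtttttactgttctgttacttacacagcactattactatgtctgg
Hist1h2be: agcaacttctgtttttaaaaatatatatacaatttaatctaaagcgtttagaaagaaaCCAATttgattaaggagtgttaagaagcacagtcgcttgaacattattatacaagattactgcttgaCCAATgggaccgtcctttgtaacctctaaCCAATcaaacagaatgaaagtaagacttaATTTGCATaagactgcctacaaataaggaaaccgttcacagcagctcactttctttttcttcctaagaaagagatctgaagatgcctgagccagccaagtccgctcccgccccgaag
Hist1h1c: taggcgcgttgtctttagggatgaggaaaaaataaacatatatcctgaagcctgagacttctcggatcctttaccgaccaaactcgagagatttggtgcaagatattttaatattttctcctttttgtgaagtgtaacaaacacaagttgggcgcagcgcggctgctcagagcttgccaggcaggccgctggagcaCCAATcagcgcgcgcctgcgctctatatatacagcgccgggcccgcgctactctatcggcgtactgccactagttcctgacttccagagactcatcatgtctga
Of the 69 members, 61 had a promoter in the table, with 62 promoters in all. The octamer was found in 14 of the 62 (22.6%) and in 1.74% of all 32851 promoters. It was in 7 of 17 H2a and 7 of 17 H2b promoters and in 0 of the H1, H3 and H4 promoters. CCAAT was found in 85.5% of the histone promoters and 37.4% of all, and TATAAA in 56.5% and 13.6%. In the adult comparison, the 9 tested members with the octamer had a median log2 fold change of 1.78 and the 24 with a promoter that lacked it had 1.67.

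In total brain at steady state, the H2b sum was higher and the H1 sum lower without Dicer. These steady-state libraries are also labelled PBS. The sum over all members was 1043, 1924 and 1260 in Dicer-deficient libraries and 750, 714 and 828.9 in controls, a log2 difference of 0.84 and one of 0.32 without Hist1h2bc. The H2b sum was 660, 815 and 604 against 204, 179 and 233, a log2 difference of 1.74 with no overlap. The H1 sum went the other way, with 36.6, 83.8 and 40.4 against 105, 86.6 and 103, a log2 difference of -0.96 with no overlap. Of 44 members tested, limma called 1 (2.48% of all genes): Hist1h2bc, with 565, 668 and 499 in Dicer-deficient libraries and 136, 139 and 163 in controls (log2 fold change 1.97 ± 0.27, adjusted p = 0.000854). The genotypes did not overlap. Hist1h2ac had 9.1, 50.4 and 34.7 against 11.3, 17.7 and 10.3, and library 11b, which had the low Cx3cr1 value, was the lowest of the 6. DESeq2 called 3 members and leaving out 11b gave 3. Neuronal markers summed to 21.3 to 40.1 in Dicer-deficient libraries and 8.4 to 25.3 in controls, with 1 of 3 tested called higher. Markers of monocytes and neutrophils summed to 22.3 to 380 against 10.3 to 36.1, with 0 of 3 called. Erythroid markers summed to 83.6 to 448 against 395 to 2386, with 0 of 5 called. The part of these markers in the histone values was not tested.

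At 6 h after LPS, the histone sum of total brain microglia overlapped between genotypes. It was 1038, 788, 833 and 730 in Dicer-deficient libraries and 701, 751, 564 and 924 in controls. Limma called 5 of 44 members (10.2% of all genes), 3 higher and 2 lower. Hist1h2bc had 261, 166, 167 and 149 in Dicer-deficient libraries and 89.8, 96.0, 78.6 and 171 in controls (0.80 ± 0.23, adjusted p = 0.0378). Control library 33, with the highest Hist1h2bc of the controls, overlapped the Dicer-deficient range. The pseudogene row Hist1h2al had 124, 60.2, 69.2 and 15.3 against 25.8, 6.9, 5.9 and 5.9 (2.44 ± 0.62, adjusted p = 0.0183), and Hist2h2aa2 had 113, 83.0, 89.3 and 52.5 against 45.4, 38.1, 21.3 and 23.8 (1.38 ± 0.43, adjusted p = 0.0479). Hist2h2aa2 was separated in all 8 libraries, and Hist1h2al overlapped and lost its call without any of 3 single libraries. Of the called members, Hist1h2bc and Hist2h2aa2 each lost the call without any of 6 single libraries. The count was 2 without Dicer-deficient library 35, 1 without 36 and 1 without 37, and 3 without control library 17, 31 or 32.

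The 2 called linker histones were lower without Dicer after LPS, in a comparison where members were called at nearly the share of all genes. Hist1h1d had 1.9, 0.8, 8.3 and 6.6 in Dicer-deficient libraries and 34.1, 36.3, 26.5 and 38.6 in controls (-2.98 ± 0.48, limma adjusted p = 0.00108), and kept its call in every alternative run. Hist1h1c had 9.3, 11, 11.8 and 13.1 against 35.1, 19.0, 17.6 and 60.4 (-1.30 ± 0.40, limma adjusted p = 0.0487), with no overlap. It lost the call without any of 6 single libraries, with a pseudocount of 0.1, with no filter and with only these groups fitted. The H1 sum was 57.9 to 82.5 in Dicer-deficient libraries and 123 to 238 in controls. Markers of monocytes and neutrophils summed to 320 to 3371 in Dicer-deficient LPS libraries and 120 to 3844 in control LPS libraries, and 2 of 8 tested were called higher. Neuronal markers summed to 27.9 to 35 against 5.2 to 11.4 and astrocyte markers to 1094 to 2036 against 593 to 859, both without overlap and with 1 marker of each list called higher. Of 10 microglial markers, 2 were called lower. The part of these markers in the values after LPS was not tested.

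In Dicer-deficient total brain microglia, some H2a and H2b genes were called lower after LPS, a smaller share of the members than of all genes. This comparison and the preceding ones share groups, as do those of hippocampus, so they are not independent. Limma called 5 of 46 members lower and 0 higher, with 27.8% of all genes called. The 5 include Hist1h2ao and Hist1h2ap, which are nearly 1 measurement. Hist1h2bc had 261, 166, 167 and 149 after LPS and 565, 668 and 499 at steady state, with no overlap (-1.66 ± 0.25, adjusted p = 0.000164). Hist1h2ao, the H2A row paired with Hist1h2ap, had 39.8, 38.1, 47.3 and 43.8 after LPS and 87.8, 198 and 155 at steady state (-1.70 ± 0.27, adjusted p = 0.000242). Hist2h2be, an H2B gene with no sequence word shared with another gene, had 0.9, 5.9, 4.7 and 3.8 against 16.9, 19.0 and 28.0 (-2.33 ± 0.54, adjusted p = 0.00439). All 3 were lower in every LPS library. edgeR and DESeq2 called 8 members each, and leaving out steady-state library 12 gave 8. Other markers moved in the same contrast. Erythroid markers summed to 2953 to 6961 after LPS and 83.6 to 448 at steady state, with 5 of 6 called higher, and 6 of 8 tested markers of monocytes and neutrophils were called higher. Microglial markers summed to 41660 to 50009 after LPS and 82903 to 85752 at steady state, with 6 of 10 called lower. Their part in the lower histone values was not tested.

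In control total brain microglia, limma called 0 of 50 members between LPS and steady state, with 15.6% of all genes called, 8 members at an unadjusted p under 0.05, 0 by edgeR and 1 by DESeq2. Hist1h2bc had 89.8, 96.0, 78.6 and 171 after LPS and 136, 139 and 163 at steady state, and the groups overlapped (-0.48 ± 0.25, adjusted p = 0.204). Without control LPS library 33, 4 members were called, and without library 17, 1. The difference between the LPS effects of the 2 genotypes was tested directly. Limma called 0 of 59 members (0.171% of all genes), with 4 at an unadjusted p under 0.05, 0 by edgeR and 1, Hist1h2al, by DESeq2. For Hist1h2bc that difference was -1.17 ± 0.35 (adjusted p = 0.213). In controls, markers of monocytes and neutrophils summed to 120 to 3844 after LPS and 10.3 to 36.1 at steady state, with 6 of 7 tested called higher and 1 lower, and 6 of 10 microglial markers were called lower.

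**Figure D3:**
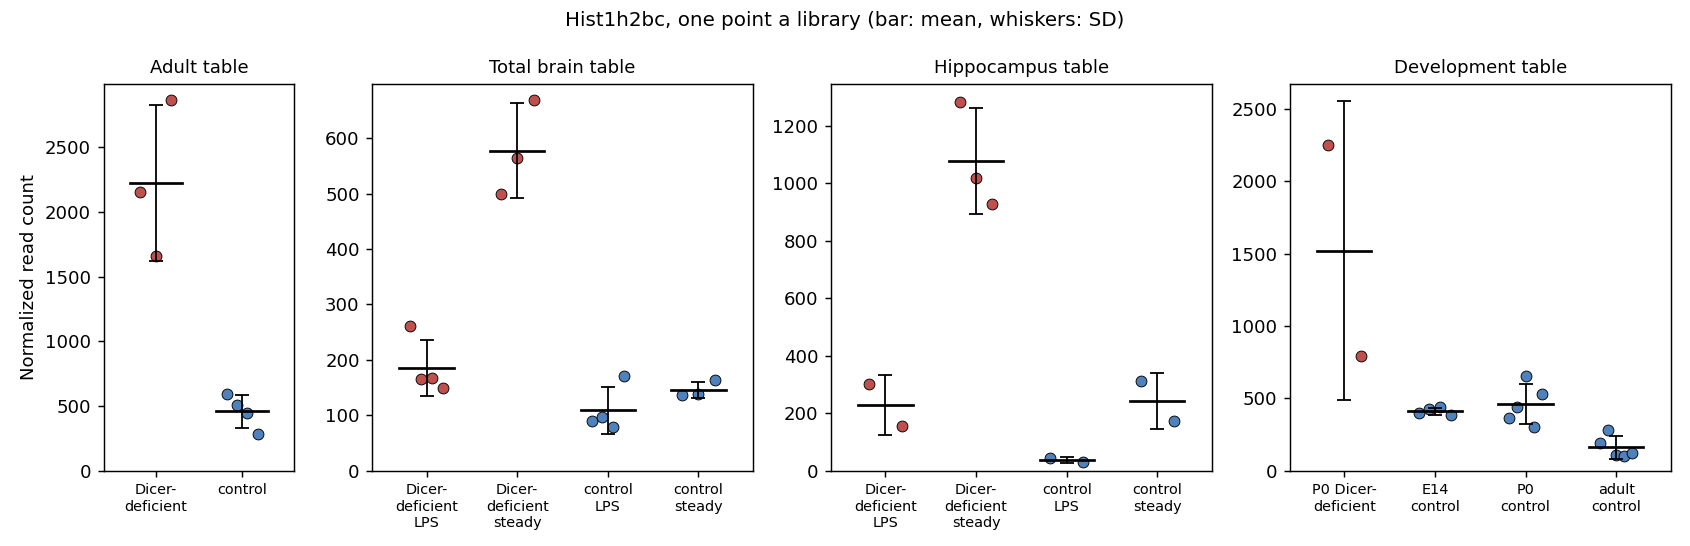
Normalized read count of Hist1h2bc in each library (y axis, linear from 0, a scale of its own in each table), with Dicer-deficient libraries in red, controls in blue, bars at the mean and whiskers of 1 SD. The Dicer-deficient steady-state libraries lie above their controls in the adult, total brain and hippocampus sets, and the LPS libraries of hippocampus lie below their steady-state libraries in both genotypes.

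In hippocampus at steady state the histone sum was higher in Dicer-deficient cells. It was 3410, 3109 and 3367 in the 3 Dicer-deficient libraries and 1381 and 839 in the 2 controls, a log2 difference of 1.61, with 1.97 and 1.25 when either control was left out. The H2a sum differed by 1.69 and the H2b sum by 2.18, and neither overlapped. The H1 sum was 140, 122 and 97.2 against 177 and 150, a log2 difference of -0.46. Limma called 1 of 46 members (0.282% of all genes). This was Hist1h2bc, with 1283, 1018 and 928 in Dicer-deficient libraries and 311 and 175 in controls (2.19 ± 0.37, adjusted p = 0.0222). The groups did not overlap, but the call was lost without any of the 3 Dicer-deficient libraries or control 2, with a pseudocount of 0.1 and with no filter. Hist1h2al had 278, 214 and 337 against 21.9 and 67.3, and Hist2h2aa2 had 210, 213 and 278 against 66.5 and 24.3. Both were separated in all 5 libraries without passing the test (adjusted p = 0.0972 and 0.0623). DESeq2 called 5 members, and 3 were called without control 1, the library with the low Cx3cr1 value. Markers of monocytes and neutrophils summed to 7531 to 7690 in Dicer-deficient libraries and 469 and 2506 in controls, with Elane at 0 in both, and their part in these values was not tested.

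After LPS in hippocampus, limma called 2 of 40 members between genotypes (0.363% of all genes), both higher in Dicer-deficient cells. Hist1h2bc had 303 and 155 in Dicer-deficient libraries and 45.7 and 29.8 in controls (2.52 ± 0.41, adjusted p = 0.0215), and Hist1h2al had 432 and 167 against 26.9 and 7.6 (4.12 ± 0.72, adjusted p = 0.0310). Both were fully separated, and the calls were lost when only these 2 groups were fitted. Without Dicer-deficient library 18 or control library 16, 0 members were called, and without Dicer-deficient library 20, 1. Hist1h4d, an H4 gene, differed widely within both groups, with 494 and 62.6 in Dicer-deficient libraries and 75.9 and 11.4 in controls. Astrocyte markers summed to 1215 to 1567 in Dicer-deficient libraries and 476 to 955 in controls, with 0 called, and 1 of 10 microglial markers was called lower; their part was not tested.

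Hist1h2bc was lower after LPS in hippocampal microglia of both genotypes. In Dicer-deficient cells it had 303 and 155 after LPS and 1283, 1018 and 928 at steady state (-2.29 ± 0.37, limma adjusted p = 0.00184), and limma called 4 of 49 members lower and 0 higher (9.51% of all genes). Hist1h2ao had 55.5 and 18.8 against 266, 262 and 257 (-2.97 ± 0.57, adjusted p = 0.00498), and Hist3h2a, an H2A gene, had 4.2 and 3.4 against 79.3, 48.6 and 47.0 (-3.60 ± 0.98, adjusted p = 0.0344); the Hist3h2a call was lost without any 1 of the 5 libraries. In each, both LPS libraries were below all steady-state libraries. Without Dicer-deficient LPS library 20, 1 member was called. In controls Hist1h2bc had 45.7 and 29.8 after LPS and 311 and 175 at steady state (-2.62 ± 0.41, adjusted p = 0.00271) and was the 1 member of 35 called (6.05% of all genes). The LPS effects of the genotypes were not told apart in hippocampus: limma, edgeR and DESeq2 called 0 of 56 members (limma 0.0162% of all genes), with 0 at an unadjusted p under 0.05, and the difference for Hist1h2bc was 0.33 ± 0.56. In Dicer-deficient cells, markers of monocytes and neutrophils summed to 33.3 to 104 after LPS and 7531 to 7690 at steady state, with 6 of 7 tested called lower, and border macrophage markers to 1.39 to 8.75 and 280 to 433, with 4 of 6 called lower. In controls, border macrophage markers summed to 6.53 to 29.8 after LPS and 232 to 351 at steady state, with 3 of 6 called lower. Of 10 microglial markers, 7 were called lower after LPS in Dicer-deficient cells and 6 in controls. The part of these markers in the lower histone values was not tested.

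**Figure D4:**
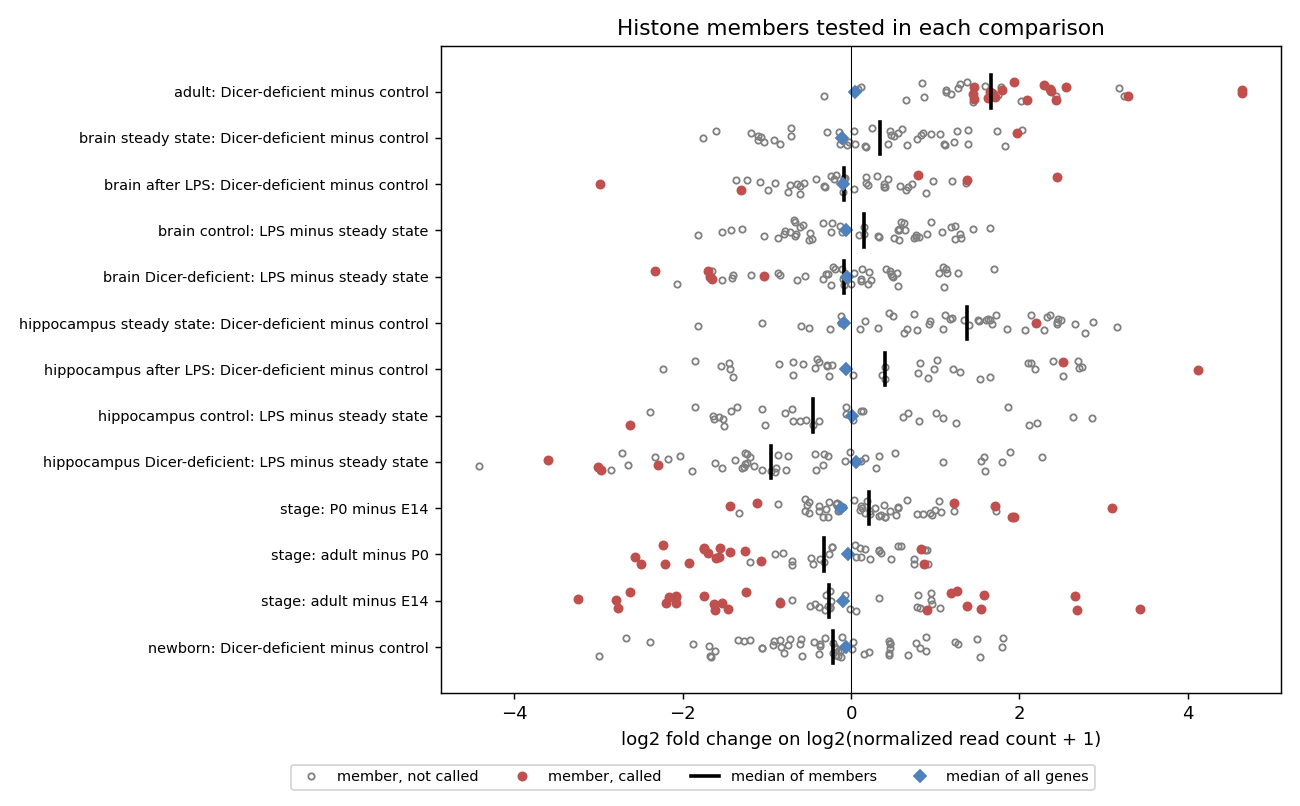
Log2 fold change (x axis) of every histone member tested in each comparison (rows, interaction tests left out), with called members in red, other members open, a black bar at the median of the members and a blue diamond at the median of all genes. The adult genotype comparison has its member median at 1.67 and hippocampus at steady state at 1.37, while the median over all genes lies near 0 in both.

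Across development, the histone sum in control microglia was 844 to 1231 at E14 and 691 to 1353 at P0, and 412 to 846 in adults. The E14 and P0 sums overlapped widely, with a log2 difference of 0.03 for P0 minus E14. Adult minus P0 gave -0.90 and adult minus E14 gave -0.86, and adult replicate 5, at 846, reached the lowest earlier libraries. The H2b sum was 438 to 507 at E14, 340 to 707 at P0 and 148 to 309 in adults, and adults did not overlap either earlier stage. The H2a sum was 354 to 638, 294 to 521 and 99.1 to 455, and adults overlapped both.

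From E14 to P0, limma called 7 of 54 members, 5 higher and 2 lower at P0 (30.2% of all genes). Hist1h2al had 36.6 to 54.9 at P0 (median 53.8) and 3.2, 5.7, 4.7 and 5.2 at E14 (3.10 ± 0.43, adjusted p = 3.82e-05). Hist2h2aa2 had 14.2 to 24.7 against 2.5, 2.1, 7.6 and 8.1 (1.93 ± 0.43, adjusted p = 0.00246). Both genes were fully separated. Hist2h2be was lower at P0, with 2.3 to 7.6 against 6.9, 13, 13.3 and 13.8 (-1.12 ± 0.34, adjusted p = 0.0161), but the groups overlapped and the call was lost without E14 replicate 4. Hist1h2bc, the most read member, had 365, 437, 654, 304 and 532 at P0 and 395, 425, 439 and 383 at E14, with overlapping groups (0.11 ± 0.25).

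Between P0 and adult, limma called 16 of 45 members, 2 higher and 14 lower in adults (51.5% of all genes). Hist1h2bc had 188, 283, 110, 102 and 119 in adults and 365, 437, 654, 304 and 532 at P0, with no overlap (-1.57 ± 0.23, adjusted p = 1.17e-05). Hist1h2ao had 12.2, 13.2, 45.7, 20.3 and 56.4 in adults and 105, 122, 154, 82.6 and 137 at P0 (-2.22 ± 0.33, adjusted p = 1.04e-05), again without overlap. Hist1h2ac fell to 4.3, 1.8, 21.6, 10.2 and 21.2, against 32, 26.1, 26.6, 17.1 and 38.5 (-1.55 ± 0.44, adjusted p = 0.00609), with 1 P0 library within the adult range. Hist1h1b, a linker histone, fell by 2.56 ± 0.44 on the log2 scale (adjusted p = 5.63e-05). Hist1h2be rose, with 12.2, 8.8, 22.4, 16.3 and 32.3 against 10.2, 8.1, 6.8, 7.7 and 11.7 (0.86 ± 0.32, adjusted p = 0.0313), with overlapping groups, and lost its call without any of 5 single libraries.

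Between E14 and adult, limma called 25 of 48 members, 9 higher and 16 lower in adults (57.6% of all genes). Both directions occurred within classes: 4 H2a genes were higher and 9 lower, and 2 H2b genes were higher and 3 lower. All 3 called rows of the Hist2h symbols, Hist2h2aa1, Hist2h2aa2 and Hist2h2ac, were higher, though Hist2h2aa1 and Hist2h2aa2 are nearly 1 measurement. Of the Hist1h symbols 6 were higher and 14 lower. Hist2h2aa2 had 20.1, 12.3, 63.0, 48.8 and 54.4 in adults and 2.5, 2.1, 7.6 and 8.1 at E14 (2.68 ± 0.43, adjusted p = 2.43e-05). Hist1h2al had 33.7, 17.5, 99.2, 72.1 and 173 against 3.2, 5.7, 4.7 and 5.2 (3.43 ± 0.43, adjusted p = 1.23e-06). Neither gene overlapped between stages, and adult libraries 1 and 2 were the lowest adults in both. Hist3h2ba, an H2B gene, was 3.25 ± 0.53 lower on the log2 scale in adults (adjusted p = 2.74e-05). Hist1h2ag and Hist1h3c, both among the 16 lower members, were listed at 0 in all 5 adult libraries. They passed the filter on low values only through E14, so they could be called only as lower in adults.

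DNA synthesis and mitosis genes were called in 1 direction over the same stages, while histone members were called in both. A smaller share of the members than of all genes was called in each stage comparison. Of all genes, 30.2% were called for P0 minus E14, 51.5% for adult minus P0 and 57.6% for adult minus E14. How those calls split by direction is not given here. Between E14 and adult, 26 of 26 DNA synthesis genes and 18 of 18 mitosis genes were lower in adults, with median log2 fold changes of -3.32 and -5.10, against -0.27 over the 48 histone members tested. Between P0 and adult, the same counts were lower, with medians of -2.84 and -4.54 against -0.32 over 45 members. Of the replication-independent variants, 10 of 11 were lower in adults than at E14, among them Cenpa, the centromeric H3, and H2afx. At P0 against E14, 9 of 26 DNA synthesis genes were lower and 0 higher. Neural progenitor markers summed to 408 to 715 at E14, 71.2 to 119 at P0 and 3.45 to 7.11 in adults. Neuronal markers summed to 147 to 459, 42.9 to 77.1 and 6.14 to 13.2 at these stages, with 5 of 5 called lower in adults than at E14. Erythroid markers summed to 485 to 836 at E14, 11507 to 47775 at P0 and 41.3 to 1790 in adults, with 5 of 5 tested called higher at P0 than at E14 and 5 of 5 lower in adults than at P0. Border macrophage markers summed to 473 to 741, 782 to 1083 and 13.2 to 62.0, with 6 of 6 called lower in adults than at P0. The part of these markers in the stage differences was not tested.

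**Figure D5:**
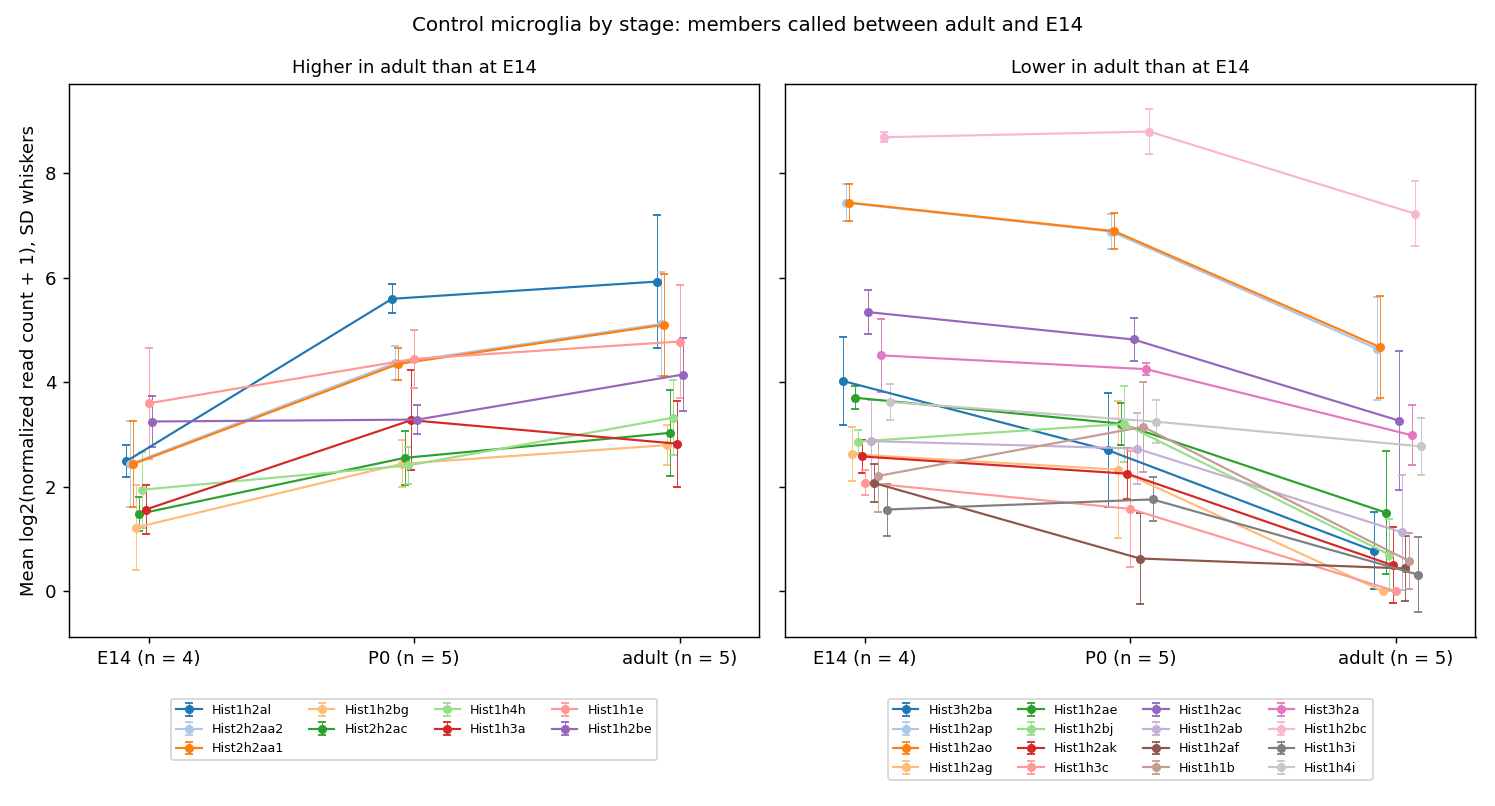
Mean log2(normalized read count + 1) in control microglia at E14 (n = 4), P0 (n = 5) and adult (n = 5) for the 25 members called between adult and E14, with whiskers of 1 SD; the left panel holds the 9 that were higher in adults and the right panel the 16 that were lower. Hist1h2bc overlaps between E14 and P0 and is lower in adults, whereas most of the change of Hist1h2al lies between E14 and P0.

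In newborn microglia, limma called 0 of 59 members between genotypes (1.48% of all genes), with 9 at an unadjusted p under 0.05, 3 called by edgeR and 4 by DESeq2. The histone sum was 3949 and 1240 in the 2 Dicer-deficient libraries and 1096, 989 and 1353 in the 3 controls. Replicate 1 stood above every control, and replicate 2 lay within their range. The log2 difference of 0.96 was 0.13 without replicate 1. Over all genes, the values of replicate 1 also summed higher, to 2.58e+06, against 1.90e+06 in replicate 2. These controls had 1.76e+06 to 1.85e+06. Scaled to library depth, the members held 1092 ± 620 RPM in Dicer-deficient libraries (SD, n = 2). Over the 5 P0 controls they held 585 ± 137 RPM (SD, n = 5). The H2b sum was 821 to 2327 against 454 to 707 in the 3 controls, with no overlap. Hist1h2bc had 2249 and 790 against 365, 437 and 654, with no overlap (1.5 ± 0.44, adjusted p = 0.116). Its adjusted p was 0.0388 in edgeR (TMM) and 0.00353 in DESeq2, and without Dicer-deficient replicate 1 the limma log2 fold change was 0.75. Without either Dicer-deficient replicate, 1 library is left in that group, so counts of called members are not given for these fits. Hist2h2aa2 had 143 and 44.5 against 24.7, 18 and 24.3 (1.81 ± 0.49, adjusted p = 0.0983). With all 5 P0 controls, limma called 3 members, Hist1h2bc, Hist2h2aa1 and Hist2h2aa2. In this comparison 3 of 26 DNA synthesis genes were lower, Mcm2, Mcm4 and Mcm6, all subunits of the replicative helicase. Erythroid markers summed to 7294 and 12824 in Dicer-deficient libraries and 11507 to 47775 over the 5 P0 controls, and their part was not tested.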

How the data were processed

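Bulk RNA-seq of sorted microglia was analysed from 4 deposited tables of 46 libraries. The authors deposited normalized read counts, a signal on which every gene of a library is multiplied by 1 factor; the factors were recovered, and all values came out as whole reads within 0.1 read (totals of 898451 to 4573063 reads a library). In 7 libraries no gene is listed at 1 read, so single reads there stand as 0. Per the submitters' processing notes, bcl2fastq, HISAT version 0.1.5, SAMtools, HOMER and DESeq2 were used with the mm9 genome, with no role or order given; RNA was captured with oligo(dT) beads, per the labels' protocols. How reads of near-identical copies were counted is not given in the sources used here.

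Each table was tested on its own with limma (version 3.58.1, R 4.3.3, trend option) on log2(value + 1) for every gene that reached 1 in a number of libraries no lower than the size of the smaller group, with Benjamini-Hochberg adjustment over all genes tested. A gene was called at an adjusted p under 0.05. A fold change on this scale understates the change of low genes. The whole brain and hippocampus groups were fitted together within each table, as were the 3 stages. Class sums carry no p. edgeR (version 4.0.16) and DESeq2 (version 1.42.0) were run on the recovered reads as alternatives, beside other pseudocounts, no filter, RPM, a block for the replicate number and each library left out in turn. The pipeline was tested on simulated data. Nothing in the labels says that libraries of a group came from separate animals, so p-values measure the spread between libraries, which may be technical.

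Members named are those called in at least 1 comparison and the 10 with the highest mean of recovered reads; Hist1h3f, the 1 tested adult member below 0, was added after its value was seen. Members and gene lists were chosen with earlier results of these data known. Transcripts are from GENCODE vM21 and promoters from RefSeq (GRCm38.p6); no coordinate was converted from or to mm9.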

Additional observations from a re-analysis of the deposited data

Results flagged for a closer look

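Values of single genes or class sums were checked in 142 sets, each from a group of 4 or 5 libraries. In these, 10 single values lay apart from the rest of their set, where chance gives about 1 in 20 sets. The sets are not independent, because rows share reads. Total brain Dicer-deficient LPS library 35 had the high Hist1h2bc value of 261 and the high H1 sum of 82.5. E14 replicate 1 stood apart in 4 genes, with the low values of Hist1h1b (1.26), Hist1h4i (7.58) and Hist2h2be (6.95) and the high value of Hist1h2ag (9.47). Adult stage replicate 5 had the high values of Hist1h3a (18.1) and Hist1h3i (2.02), and its Cx3cr1 value was among the 3 low ones of that group. Total brain control LPS library 17 had the high Hist1h2al value of 25.8, and adult control replicate 3 the high Hist2h2ac value of 80.6.

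The sum of the linker histones H1 differed in direction between sets, with no overlap of the groups within each set. Dicer-deficient minus control gave 1.60 in the adult set on the log2 scale, against -0.96 in total brain at steady state, -1.42 in total brain after LPS and -0.46 in hippocampus at steady state. LPS minus steady state gave 0.81 in total brain controls, against -2.01 in hippocampus controls and -1.80 in hippocampus Dicer-deficient cells. These differences between sets were not tested, and the tables were normalized separately.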

How the results depend on the processing

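Of 85 called member results, 61 were called under every other tool and setting. When each library was left out in turn, 56 lost no call, and 56 lost none under all of these. Among the 56, Hist1h2ag and Hist1h3c for adult minus E14 were tested in only 5 of the left-out fits. Neither passed the filter when an E14 library was left out. Direction reversed in 0 results. Of 154 alternatives to the 15 log2 differences of the sum over all members, 132 moved by less than the spread between replicates and kept their sign. Without Hist1h2bc the sum differed by 0.32 for genotype in total brain at steady state, 0.0041 for LPS in its controls, -0.23 for LPS in its Dicer-deficient cells, -0.23 for their interaction and -0.028 for P0 minus E14. In RPM it was 0.011 for LPS in total brain controls and -0.029 for the hippocampus interaction.

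The number of called members in total brain at steady state was 2 with a pseudocount of 5, 2 in RPM and 3 in DESeq2. After LPS it was 3 with a pseudocount of 0.1 and 3 with no filter. For LPS in total brain controls DESeq2 called 1, in Dicer-deficient cells edgeR TMM, edgeR RLE and DESeq2 called 8, 8 and 8, and for their interaction DESeq2 called 1. Hippocampus at steady state had 0 with a pseudocount of 0.1, 3 with 5, 0 with no filter and 5 in DESeq2. Hippocampus after LPS had 1 with a pseudocount of 0.1, 4 in DESeq2 and 0 with only its groups fitted. P0 minus E14 had 11 with only its groups fitted. The newborn comparison had 3 in edgeR TMM, 3 in edgeR RLE, 4 in DESeq2 and 3 with all P0 controls. The cause of these shifts was not tested.

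Leaving out 1 library gave 12 to 16 called members in the adult comparison, 1 to 3 in total brain at steady state, 1 to 5 after LPS, 0 to 4 for LPS in its controls, 4 to 8 in its Dicer-deficient cells and 0 to 0 for their interaction. In hippocampus and newborns some of these fits keep only 1 library in a group, and their counts are left out here. Leaving out 1 library gave 5 to 9 for P0 minus E14, 13 to 17 for adult minus P0 and 19 to 25 for adult minus E14. The sum then lay between -0.19 and 0.045 for LPS in total brain controls, 1.25 and 1.97 for genotype in hippocampus at steady state, -1.73 and -0.52 for LPS in hippocampus Dicer-deficient cells, -0.56 and 0.65 for the hippocampus interaction, -0.063 and 0.18 for P0 minus E14, and 0.13 and 1.80 in newborns.

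Groups share replicate numbers, but no label ties the numbers, and same-numbered libraries deviated from their group means with correlations of -0.0224 to 0.0182 between adult genotypes, -0.17 to 0.198 between stages and 0.122 to 0.126 over the 2 newborn pairs. With the replicate number as a block, 15 members were called in the adult comparison, 9 for P0 minus E14, 15 for adult minus P0, 22 for adult minus E14 and 5 in newborns. Depth limits the low members: Hist1h4k had 1 to 3 reads in adult controls. Counting each near-identical pair once, a choice made after seeing the data, gave a sum difference of 1.61 in hippocampus at steady state.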
